A study of Rattus norvegicus with 6 samples.

Results

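miR-203a-3p (rno-miR-203a-3p on the array) and miR-205 (rno-miR-205) are microRNAs (miRNAs) of stratified, squamous epithelium, the multilayered lining of skin, anus and lower urogenital tract. They were followed here in pieces of the terminal hindgut of fetal rats. Both were chosen by name among the 758 miRNAs of the array, as markers of squamous epithelium near the anus. They are read by 2 probes each, 4 of the 1806 miRNA probes, and by 32 of the 12128 miRNA spots of an array. Of the 6 Sprague Dawley samples, 3 came from fetuses with an anorectal malformation (ARM) and 3 from healthy ones (control). Dams of the ARM group were gavaged on gestational day 10 with ethylenethiourea (ETU, 125 mg/kg as a 1% preparation), which blocks thyroid hormone synthesis and is a known teratogen of the caudal rat embryo, and control dams received distilled water. On embryonic day 20 the fetuses were sorted by microscopy, and 1 cm of terminal hindgut was taken from each. ETU exposure and malformation were joined in the ARM group and cannot be told apart. The labels do not say whether a sample is 1 fetus or which dam it came from, so the p-values speak only of the spread among these samples, which may be technical. Values of single arrays are given in the order of replicates 1, 2 and 3 throughout.

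A miRNA guides a silencing complex to messenger RNAs whose 3′ untranslated regions pair with its seed, the bases 2 to 8 counted from its 5′ end. miR-203 is switched on as keratinocytes leave the basal layer of the skin, where it represses the transcription factor p63, the master regulator of stratified epithelium, and so promotes differentiation. miR-205 is abundant in basal cells of stratified and glandular epithelia. Together with the miR-200 family it represses ZEB1 and ZEB2, transcription factors that drive the loss of epithelial identity. Columnar epithelium of the gut is instead marked by miR-192, miR-194, miR-215 and miR-375, and shares the miR-200 family with squamous epithelium.

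What the probes distinguish was not tested, since the probe sequences were not at hand. The sequences of both members and of the other products of the miR-203 locus are shown so that their bases can be compared. They are RefSeq entries of the rat build GRCr8, written 5′ to 3′ with the seed in capitals.
miR-203a-3p: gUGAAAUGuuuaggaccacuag
miR-203a-5p: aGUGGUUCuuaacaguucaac
miR-203b-5p: aGUGGUCCuaaacauuucac
miR-203b-3p: uUGAACUGuuaagaaccacugg
miR-205: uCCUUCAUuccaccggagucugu
The members have different seeds, and neither seed was found in any other of the 685 array miRNAs whose names matched a RefSeq sequence (73 names did not match). The locus of miR-203 carries precursors on both strands. miR-203a comes from the plus strand and miR-203b, whose gene is listed as Mir3545, from the minus strand. The arm miR-203b-5p is 20 bases long, and all 20 are the reverse complement of bases of miR-203a-3p. Between miR-203a-5p and miR-203b-3p the longest complementary run is also 20 bases.

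The precursors are printed to place the mature arms, which stand in capitals.
Mir203 hairpin: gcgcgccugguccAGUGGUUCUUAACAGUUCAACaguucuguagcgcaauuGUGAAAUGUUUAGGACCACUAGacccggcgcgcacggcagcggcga
Mir205 hairpin: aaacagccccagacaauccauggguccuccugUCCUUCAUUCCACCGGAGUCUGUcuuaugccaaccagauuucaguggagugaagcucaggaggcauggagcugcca
The Mir203 hairpin of 97 bases lies at chr6:137020705-137020801 on the plus strand, and mature miR-203a-3p at chr6:137020756-137020777. The hairpin overlaps Mir3545 and no protein-coding gene. It sits 3.29 kb from Aspg, an asparaginase gene, and 15.2 kb from Kif26a, an atypical kinesin gene. The Mir205 hairpin of 108 bases lies at chr13:107564535-107564642 on the minus strand, with mature miR-205 at chr13:107564588-107564610. It overlaps no annotated gene. Its nearest protein-coding neighbour on the side of lower coordinates is Camk1g at 134 kb, and an unnamed long noncoding RNA, LOC120096361, begins 26.6 kb away on the other side.

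The arrays gave 207 to 246 detected miRNAs each, with 22.3% to 26.3% of spots well above background. No miRNA spot was saturated. The value of a miRNA is the mean over its probes of log2 intensity, after each array was scaled to the 75th percentile of its 300 probes detected on all arrays. Of the 758 miRNAs, 230 were detected on at least 3 arrays and tested, both members among them. ARM replicates 1 and 2 and the 3 controls shared a slide, and ARM replicate 3 was on another. Control replicate 1 stood apart in markers of the gut epithelium. Its intestinal epithelium list mean was 4.71, against 6.16 and 6.35 in control replicates 2 and 3. Its striated muscle list mean was 8.19, against 7.93 and 6.33, so there control replicate 3 was the lower one. Values of the members and of the epithelial, p63, striated muscle, erythroid and liver lists without it are given beside those with it. With 3 arrays a group, precision is limited by their number.

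miR-203a-3p was detected on all 6 arrays, and its group means differed without passing the test. Its level was 3.44, 4.30 and 4.81 in the controls and 4.73, 5.21 and 5.04 in ARM (log2 scaled intensity). Control replicate 1 was the lowest array, and the groups overlapped because control replicate 3 lay above ARM replicate 1. The mean was 4.99 ± 0.25 in ARM and 4.18 ± 0.69 in control (SD, n = 3 each), so the controls were the more dispersed group. ARM minus control was 0.81 (SE 0.35), a 1.75-fold higher mean in ARM. The limma p was 0.0522 unadjusted and 0.121 adjusted over the 230 miRNAs, and the 95% interval of the difference ran from -0.0098 to 1.63. In this comparison 31 of 230 miRNAs passed, 13.5% of those tested. The difference ranked as number 22 from the highest of the 230. Relative to the median difference of all tested miRNAs, 0.17, it was 0.63.

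The size of the miR-203a-3p difference depended on single controls. Without control replicate 1 it was 0.44 (limma, adjusted p = 0.286), and without control replicate 3 it was 1.12 and passed (limma, adjusted p = 0.0436). Fits leaving out single arrays called 0 to 92 of the 230 miRNAs, against 31 with all arrays, so a pass in 1 such fit carries little weight. The miR-203a-3p difference was 0.78 within the slide that held both groups (limma, adjusted p = 0.229). It was smaller with normexp background correction, at 0.35 (SE 0.14, limma adjusted p = 0.0902). Without scaling it was 0.50 (SE 0.30, limma adjusted p = 0.298). Neither passed, though with normexp the SE was smaller too and the adjusted p was below the 0.121 of the main fit. Normexp was run with an offset of 50 added to every intensity, which compresses log2 differences of dim probes. Scaling shifts all miRNAs nearly alike, and without it the median of all tested miRNAs was -0.13. The distance of miR-203a-3p above the median of all, 0.63, became 0.16 with normexp and 0.31 without control replicate 1.

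**Figure D1:**
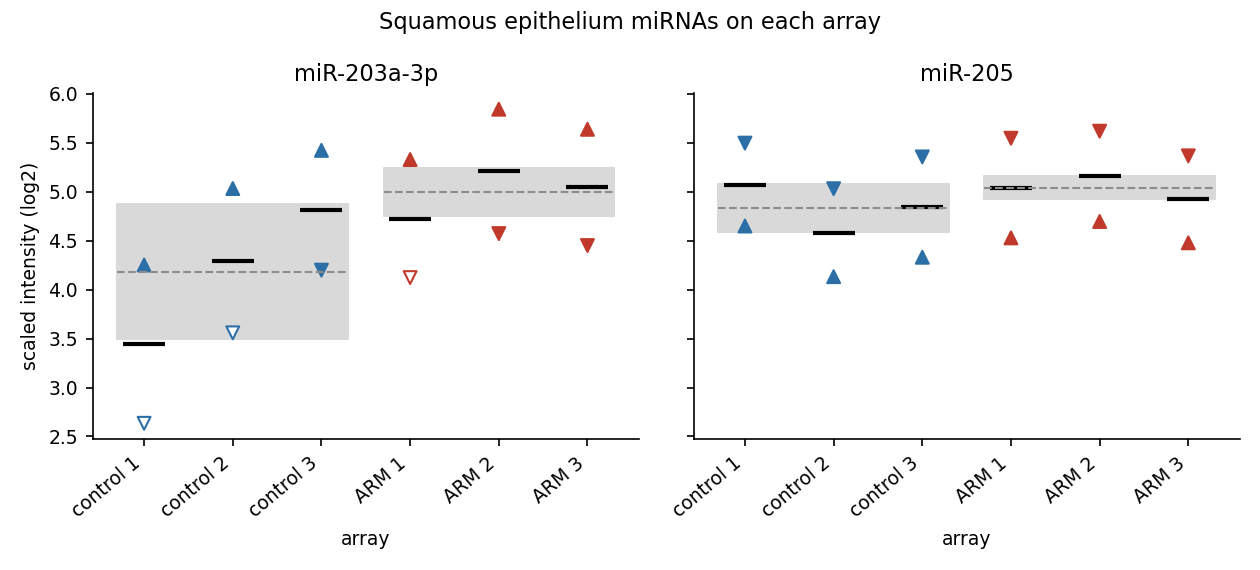
Level of miR-203a-3p (left) and miR-205 (right) on each array, in log2 scaled intensity. Triangles are the 2 probes of each miRNA, filled where detected on that array and open where not, black bars their mean, dashed lines the group mean and grey bands ± 1 SD (n = 3). miR-203a-3p spreads from 3.44 to 5.21, with control replicate 1 lowest, while miR-205 stays between 4.58 and 5.16.

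Both probes of miR-203a-3p gave a positive difference. The brighter probe was well above background in all 8 spots on every array. Its scaled intensity, on a linear scale, was 19.1, 32.7 and 42.9 in the controls and 40.2, 57.4 and 49.8 in ARM. Only control replicate 3 reached into the ARM range. Its spots varied within an array by 7.95% to 13.8% (CV), less than the arrays of the control group varied among themselves.

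The dimmer probe of miR-203a-3p lay near the limit of detection. Its scaled intensity was 6.21, 11.8 and 18.4 in the controls and 17.4, 23.8 and 21.9 in ARM. It was detected on ARM replicates 2 and 3 and control replicate 3. On ARM replicate 1 and control replicates 1 and 2, 2, 0 and 1 of its 8 spots were well above background. In a fit over the 390 probes detected on at least 3 arrays, ARM minus control was 0.70 (SE 0.32) for the brighter and 0.92 (SE 0.39) for the dimmer probe. Neither passed (limma, adjusted p = 0.149 and 0.129), where 58 of the 390 probes did, 14.9%. The scanner software's own total signal, unscaled, was 12.4, 27.4 and 30.9 in the controls and 26.3, 38.8 and 36.3 in ARM. It too was lowest on control replicate 1.

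The other 3 products of the miR-203 locus were not detected on any array. For miR-203a-5p, the passenger arm of the same hairpin, and for miR-203b-5p and miR-203b-3p of the opposite strand, 0 spots of either probe were well above background. The unscaled mean intensity of the miR-203b-5p probes ran from -0.0084 to 1.71, against 7.58 to 50.8 for the probes of miR-203a-3p.

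miR-205 was detected on all 6 arrays with both probes, though 5 and 4 of the 8 spots of the dimmer probe were well above background on control replicates 2 and 3, against 8 on the other arrays. Its level was 5.07, 4.58 and 4.84 in the controls and 5.04, 5.16 and 4.92 in ARM. The groups overlapped, and control replicate 1, the lowest array for miR-203a-3p, was the highest control for miR-205. The mean was 5.04 ± 0.12 in ARM and 4.83 ± 0.25 in control (SD, n = 3 each). ARM minus control was 0.21 (SE 0.19; limma, adjusted p = 0.413), a 1.15-fold higher mean, with a 95% interval from -0.25 to 0.66. That interval allows a mean from 0.844-fold to 1.58-fold of control. Relative to the median of all tested miRNAs the difference was 0.032. It was -0.11 without scaling, 0.039 with the total gene signal, 0.33 without control replicate 1 and 0.081 without control replicate 2, and passed in none of these. Within the slide that held both groups it was 0.26.

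The probes of miR-205 gave nearly the same difference. It was 0.22 (SE 0.19) for the brighter and 0.20 (SE 0.20) for the dimmer probe (limma, adjusted p = 0.412 and 0.460), and both were negative without scaling (-0.097 and -0.12). The brighter probe's scaled intensity was 45.2, 32.7 and 41.0 in the controls and 46.8, 49.1 and 41.3 in ARM. Only control replicate 2 was clearly lower than the rest. Within arrays the brighter probe exceeded the dimmer by 0.85 to 1.03 on the log2 scale, a narrower range than the 1.19 to 1.62 of miR-203a-3p, whose widest gap was on control replicate 1. The spread of miR-205 over arrays, a pooled SD of 0.19, was below the median of all tested miRNAs (0.29), and that of miR-203a-3p, 0.52, was above it.

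The members were also compared within arrays. The within-array difference of their levels, miR-203a-3p minus miR-205, has no meaningful zero because the probes differ, but its shift between groups does not depend on the scaling. It was -1.63, -0.29 and -0.033 in the controls and -0.31, 0.051 and 0.12 in ARM. Control replicate 1 lay far below the other 5 arrays, and the groups overlapped. The shift was 0.60 (two-sided exact permutation test, p = 0.3, where the smallest possible is 0.1), and 0.11 without control replicate 1. With normexp background correction, whose offset of 50 compresses differences of dim probes, it was 0.15 (exact permutation p = 0.5). Unequal change of the members between ARM and control was not shown.

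**Figure D2:**
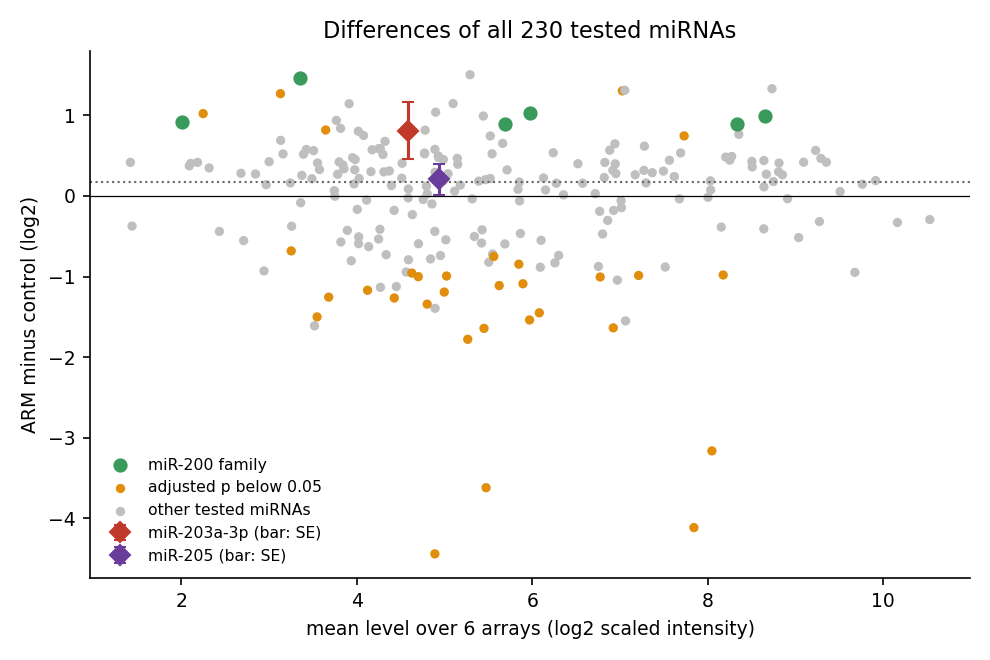
ARM minus control (log2) against mean level over 6 arrays (log2 scaled intensity) for all 230 tested miRNAs. Diamonds are miR-203a-3p and miR-205 with their SE, green points the miR-200 family, orange points miRNAs with an adjusted p below 0.05, and the dotted line the median of 0.17. miR-205 lies on that median, and miR-203a-3p lies above it at 0.81.

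Few other miRNAs of skin and stratified epithelium were measurable. Of 10 on the list, all on the array, 4 were tested and the other 6 were detected on no array. Among the undetected were miR-184, abundant in corneal epithelium, and both miR-203b arms. All 4 tested differences were positive, none passed, and their median was 0.44, against 0.17 for all tested miRNAs, of which 137 of 230 were positive. Without scaling 2 of the 4 were positive. Without control replicate 1 there were 3, and the median was 0.38. The summed scaled intensity of the 4 ranged from 6.83 to 6.94 in ARM and from 6.37 to 6.67 in control (log2).

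miR-31a-5p, a miRNA of proliferating keratinocytes and the hair follicle, ranked as number 16 in likeness to miR-203a-3p over the arrays. Its level was 3.72, 3.71 and 4.53 in the controls and 4.61, 4.75 and 4.63 in ARM. All ARM arrays lay above all controls, by a narrow margin over control replicate 3. Groups did not overlap for 112 of the 230 tested miRNAs, 48.7%, so this alone does not set it apart. The difference was 0.68 (SE 0.26, limma adjusted p = 0.0977). It passed without control replicate 3 (0.95, limma adjusted p = 0.0119) and with array weights (0.84, limma adjusted p = 0.0193). Array weights called 87 of all 230 miRNAs, and fits leaving out single arrays called 0 to 92. On all arrays but ARM replicate 3 only 1 of the 2 probes of miR-31a-5p was detected. miR-211-3p, from the host gene of a melanocyte channel, was at 4.82 ± 0.36 in ARM and 4.79 ± 0.64 in control (SD, n = 3 each). Its difference was 0.026 (SE 0.35) and changed sign with the scaling.

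The miR-200 family, which shares ZEB1 and ZEB2 with miR-205 as targets, was higher on average in ARM, and no member passed. Of 9 members on the array 6 were tested, and all 6 differences were positive in every setting that gave a value, with a median of 0.95 (0.58 without control replicate 1). With array weights 5 of the 6 passed as higher, where 87 of all 230 tested miRNAs passed. Without control replicate 3 there were 2, and fits leaving out single arrays called 0 to 92 of all 230. With the brightest probe or detected probes only there was 1 in each. miR-141-3p differed by 1.03 (SE 0.39; limma, adjusted p = 0.0970) and miR-200a-3p by 0.89 (SE 0.30; limma, adjusted p = 0.0780). These share a seed that differs from that of miR-200b, miR-200c and miR-429. Of the others, miR-200b-3p differed by 0.99, miR-429 by 0.90, miR-200b-5p by 0.92 and miR-200c-3p by 1.47, and the last 2 were detected on 1 of 3 control arrays. Even on the ARM arrays only 1 of the 4 probes of miR-200b-5p and 1 of the 2 of miR-200c-3p were detected. The sizes of these 2 differences depended on the floor: with a floor of 10 they were 0.26 and 0.63. Over all settings that gave a value, miR-200b-5p ran from 0.26 to 3.46 and miR-200c-3p from 0.40 to 1.78. The arms miR-200a-5p, miR-200c-5p and miR-141-5p were detected on no array.

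Both members were set against the intestinal epithelium list on the same arrays. The 9 tested miRNAs of the intestinal epithelium list had a mean of 4.71, 6.16 and 6.35 in the controls and 6.83, 7.23 and 6.61 in ARM, with control replicate 1 far below the rest. Of these 9, 5 are also in the miR-200 list, which squamous epithelium shares. The mean is therefore not a measure of columnar epithelium alone. miR-205 minus that mean was 0.37, -1.58 and -1.51 in the controls and -1.79, -2.08 and -1.69 in ARM. All ARM values lay below all control values, and the shift was -0.94 (exact permutation, two-sided, p = 0.1, which is the smallest value 3 against 3 can give). The list mean itself was 1.15 higher in ARM, and miR-205 by 0.21, near the median of all tested miRNAs (0.17). A negative shift of like size is thus what any miRNA near that median gives. How many tested miRNAs would also not overlap was not counted. The miR-205 shift was -0.31 without control replicate 1, and -0.75 with the total gene signal (exact permutation p = 0.6). For miR-203a-3p the same quantity was -1.27, -1.87 and -1.54 in the controls and -2.10, -2.02 and -1.57 in ARM. These overlapped, with a shift of -0.34 (two-sided exact permutation test, p = 0.2). It was -0.19 without control replicate 1, -0.51 without ARM replicate 3 and -0.064 with the total gene signal (exact permutation p = 0.9). In bulk tissue fewer cells of a type and less RNA per cell cannot be told apart.

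**Figure D3:**
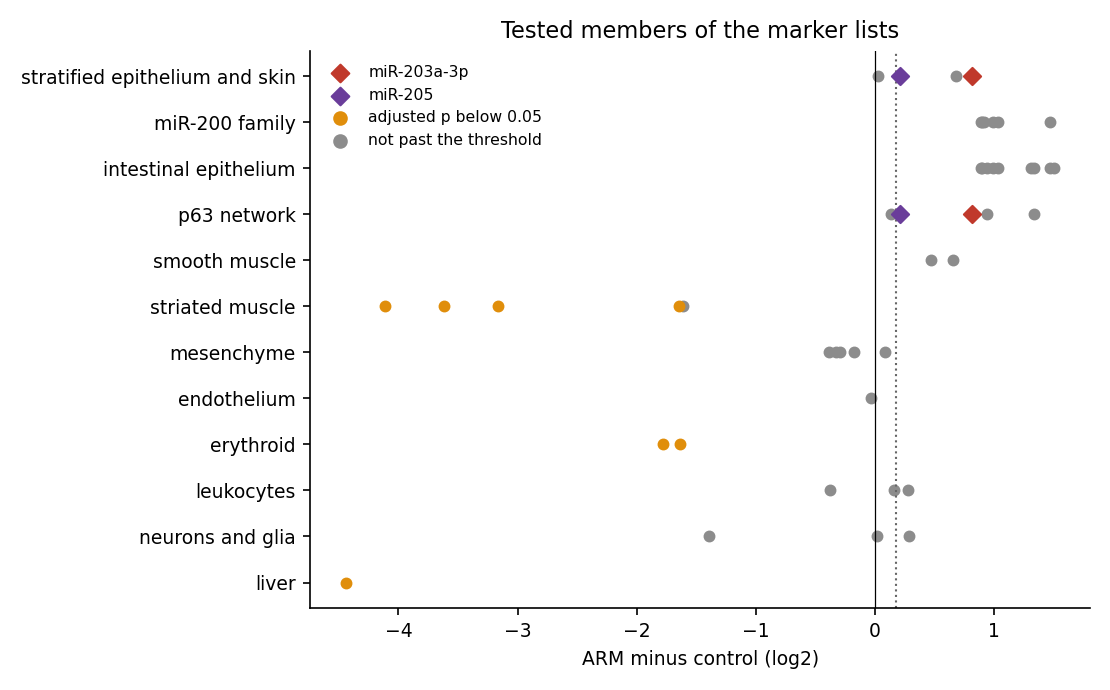
ARM minus control (log2) of each tested miRNA of the marker lists, with miR-203a-3p and miR-205 as diamonds, orange points past an adjusted p of 0.05 and the dotted line at the median of all tested miRNAs (0.17). The 4 stratified epithelium miRNAs lie between 0.026 and 0.81, below the intestinal epithelium list, which starts at 0.89, and the called miRNAs of these lists are all lower in ARM.

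Markers of other tissues in the piece were read on the same arrays, where 31 of all 230 tested miRNAs passed, 13.5%. Of the intestinal epithelium list 9 of 11 were tested, 0 passed, and the summed intensity (log2) was 10.72 to 11.39 in ARM and 9.02 to 10.5 in control. The median difference of that list was 1.03, and 0.58 without control replicate 1. Of the striated muscle list 5 of 8 were tested and 4 passed as lower, with a sum of 6.81 to 8.09 in ARM and 9.66 to 11.8 in control; miR-208a-3p, miR-208b-3p and miR-499-5p, of heart and slow muscle, were detected on no array. The smooth muscle list (2 of 4 tested, 0 passed) had sums of 9.61 to 9.70 in ARM and 8.89 to 9.67 in control. The erythroid list (2 of 4 tested, both lower) had 6.11 to 6.73 and 7.69 to 8.54, and the single liver miRNA, miR-122-5p, also lower, had 1.096 to 4.45 and 6.75 to 7.75. The mesenchyme list (5 of 6 tested, 0 passed) had 11.2 to 11.5 and 11.5 to 11.9. The calls of the striated muscle, erythroid and liver lists were all lost (0 passed) when control replicate 1, control replicate 2 or ARM replicate 3 was left out singly. They were also lost with a replicate block and with no detection filter. No miRNA of any kind passed in these settings, so the loss was not particular to these lists. The medians of these lists without control replicate 1 were -2.76, -1.50 and -4.58, against -3.16, -1.71 and -4.44 with it. With the total gene signal 3 of the 5 striated muscle miRNAs were positive. Of the 5, 3 passed, counted in either direction, where 28 of all 230 did. The list median was then 1.67, a reversal whose cause was not tested. The part of these tissues in the values of miR-203a-3p and miR-205 was not tested.

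For endothelium, leukocytes, and neurons and glia the median differences were -0.037 (1 tested), 0.16 (3 tested) and 0.014 (3 tested), and no member passed. The neural differences were not alike: they ran from -1.39 for miR-128-3p (limma, adjusted p = 0.0585) to 0.28. In some settings, among them detected probes only and array weights, 1 neural miRNA passed. Array weights called 87 of all 230 tested miRNAs. The p63 list holds both members and miR-34a-5p, whose family p63 represses in keratinocytes, with miR-192-5p and miR-215 of the gut epithelium. All 5 tested miRNAs were positive and none passed. Their median was 0.81, and 0.35 without control replicate 1. miR-34a-5p differed by 0.13 (SE 0.17), and miR-34b-5p and miR-34c-5p were detected on no array.

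miRNAs were ranked by how closely they followed each member across the 6 arrays, as the root mean square difference of log2 levels, each centred on its own mean. Nearest to miR-203a-3p were miR-137-3p (0.18), miR-29b-3p (0.20), miR-141-3p (0.22), miR-196c-5p (0.22) and miR-200a-3p (0.22), where the median miRNA lay at 0.56. All of these were lowest on control replicate 1. miR-205 came at rank 125 of the others, but at rank 17 without control replicate 1. Nearest to miR-205 were miR-149-5p (0.15), miR-27b-3p (0.16), miR-30a-5p (0.18), miR-34a-5p (0.18) and miR-140-5p (0.19), against a median of 0.41. These had differences of 0.074 to 0.18 between the groups. The measure itself favours miRNAs whose difference is close to that of miR-205, so this is not a separate observation. The miR-200 family ranked between 160 for miR-200a-3p and 212 for miR-200c-3p in likeness to miR-205, and between 50 and 124 for the same miRNAs without control replicate 1. The order of likeness changed without control replicate 1: 0 of the 5 nearest were shared for either member. The former nearest then lay at ranks 9 to 52 for miR-203a-3p and 15 to 60 for miR-205.

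**Figure D4:**
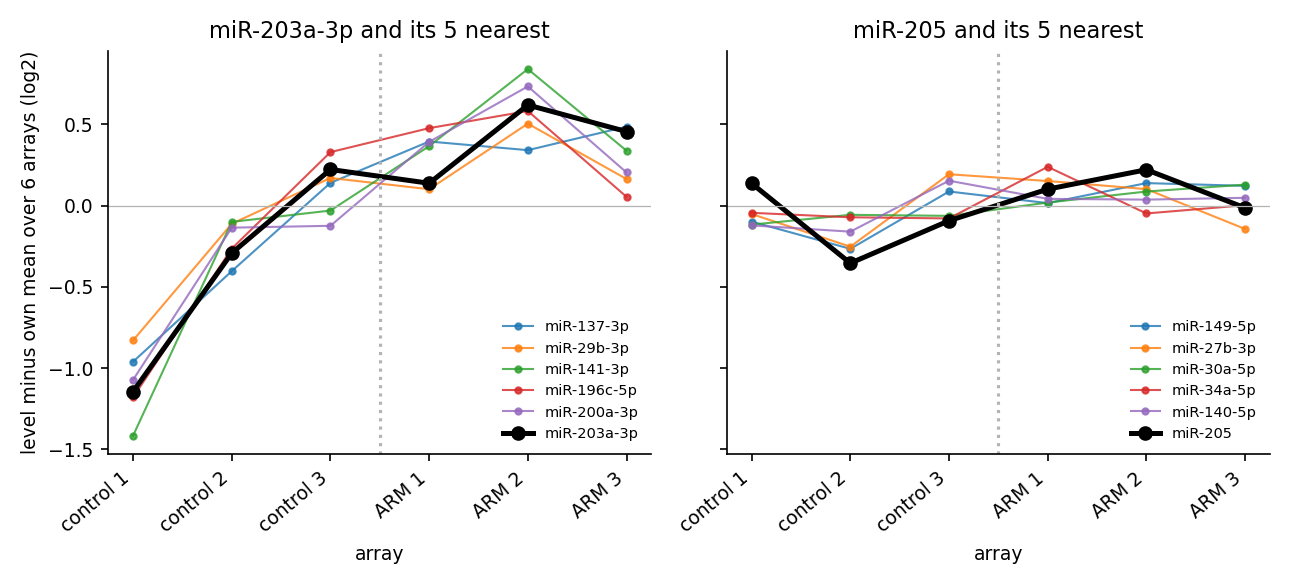
Level minus its own mean over the 6 arrays (log2) for miR-203a-3p (left) and miR-205 (right), thick black lines, each with the 5 miRNAs nearest to it. miR-203a-3p and its nearest miRNAs fall on control replicate 1, and miR-205 does not.

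**Figure D5:**
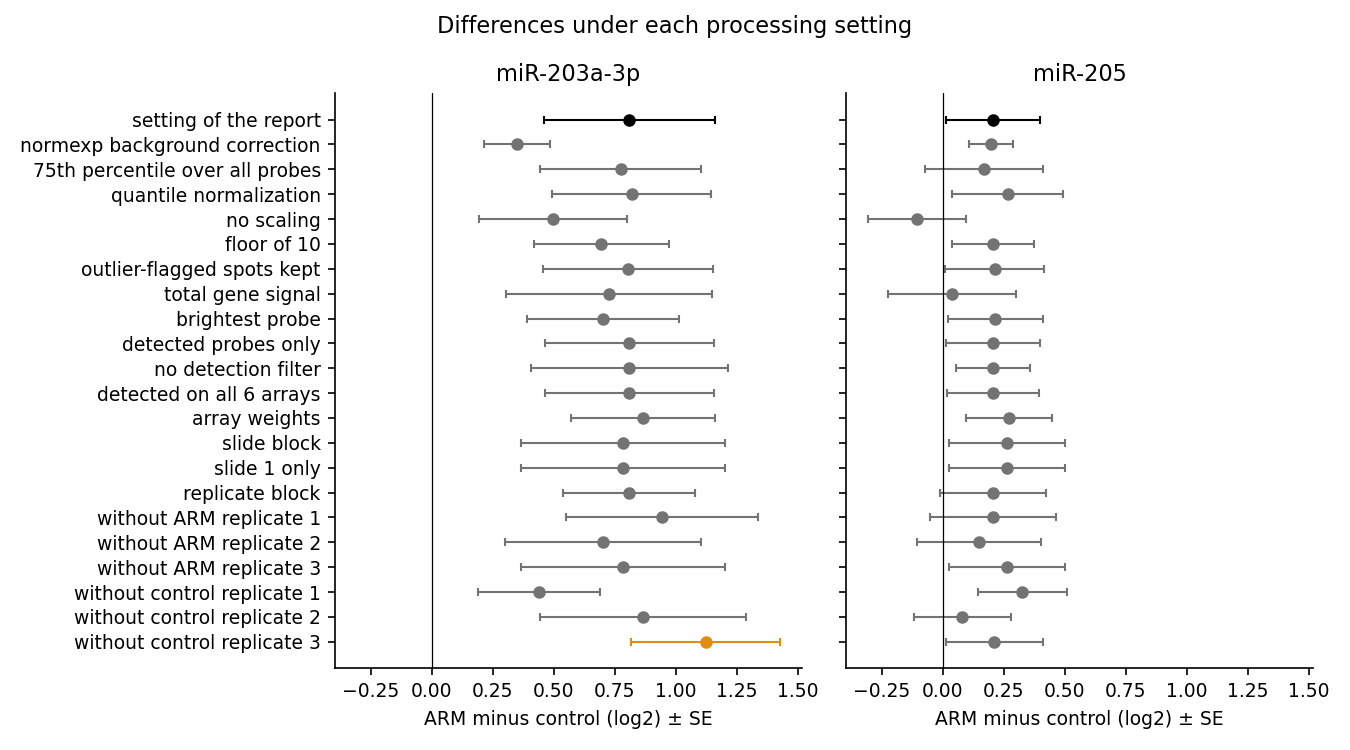
ARM minus control (log2) ± SE of both members under each processing setting, on one horizontal scale; orange marks an adjusted p below 0.05. miR-203a-3p stays between 0.35 and 1.12 and passes only without control replicate 3, and miR-205 stays between -0.11 and 0.33.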

How the data were processed

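Total RNA was hybridised to one-colour (Cy3) Agilent miRNA arrays, 1 per sample. The intensity values were deposited as made by Agilent Feature Extraction 10.7.1.1, with background subtraction and spatial detrending, per the file headers. No scaling between arrays had been applied, and the deposited value table held the same intensity (largest difference 0). Control spots and outlier-flagged spots were left out and spots averaged per probe. Detection of a probe required a share of 0.5 or more of its unflagged spots to exceed background clearly. After scaling, intensities were floored at 1 and converted to log2. ARM was compared with control by limma 3.58.1 in R 4.3.3 (lmFit, eBayes) with Benjamini-Hochberg adjustment over all tested miRNAs and a threshold of 0.05. The code was tested on simulated data. Named were the members, tested miRNAs of the stratified epithelium and miR-200 lists, the highest of other lists, and the 5 nearest miRNAs. Members and lists were chosen with earlier results of these data known. Alternatives covered background correction (normexp with an offset of 50), scaling, probe summary, floor, filters, weights, slide, pairing and left-out arrays.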

Additional observations from a re-analysis of the deposited data

How the results depend on the processing

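Of 21 alternatives, the slide block, slide 1 only and leaving out ARM replicate 3 are the same fit, since that array was alone on its slide. Over them miR-203a-3p stayed positive, from 0.35 to 1.12 (adjusted p 0.0436 to 0.359), and passed in 1, without control replicate 3. With single arrays left out it ranged from 0.44 to 1.12. miR-205 ranged from -0.11 to 0.33 and passed in none; it turned negative, at -0.11, without scaling, as did its probes (-0.12 and -0.097) and the median of all miRNAs (-0.13; -0.095 with the total gene signal). miR-211-3p turned negative with the percentile over all probes (-0.010), without scaling (-0.29), with the total gene signal (-0.14), when arrays were weighted (-0.18) and without some arrays (-0.25 to 0.38). The within-array shifts kept their sign in all settings run, but miR-203a-3p minus miR-205 ranged from 0.11 to 0.91, miR-203a-3p minus the intestinal mean from -0.51 to -0.064 and miR-205 minus that mean from -1.28 to -0.31. The 31 calls by limma became 16 with normexp background correction and 87 when arrays were weighted. No call was left (0) when undetected miRNAs were kept, where 134 had an unadjusted p below 0.05. The count was also 0 in the fit without ARM replicate 3, the within-slide fit (78 unadjusted), and with the replicate block (73 unadjusted). Leaving out control replicate 1 or control replicate 2 likewise left 0 calls. Leaving out single arrays gave 0 to 92 calls (58 to 130 unadjusted). The replicate block left miR-203a-3p at 0.81 and miR-205 at 0.21, neither past the threshold, and the within-array shifts at 0.60, -0.34 and -0.94. Deviations of same-numbered samples correlated at -0.067, -0.28 and -0.21, and 0 of 6 arrays correlated best with its own number. No pairing by number was seen, though so few samples cannot exclude one. The cause of these changes was not tested. The nearest miRNAs without control replicate 1 were computed after seeing the data. Signal over background limits the dimmer probe of miR-203a-3p, detected on 3 of 6 arrays.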
